A study of Drosophila melanogaster with 2 samples.

Results

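The 10 genes described here encode nuclear receptors of Drosophila melanogaster other than Hr83 itself, and they were taken by symbol from the 13945 protein-coding genes of the annotation: Hr96, ERR, Hr39, Hr78, Hr38, Hr4, Hr3, Hnf4, svp and ftz-f1. Chromatin bound by Hr83, an orphan nuclear receptor, was profiled by ChIP-seq in whole larvae of the wandering stage at the end of larval life. Males and females were pooled and their age is given as unknown, the transgenic line stably carried Hr83 fused to GFP at its C-terminus, and precipitation was done with an antibody to GFP. The 1 group, Hr83-GFP larvae, held 2 biological replicates, which the labels number 3 and 4; how the replicates were obtained is not stated further. Larvae without the tagged receptor were not analysed here, so that what is particular to the tagged receptor was not tested, and the regions of whole animals cannot be assigned to a tissue.

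Nuclear receptors are transcription factors that pair a zinc finger DNA-binding domain with a ligand-binding domain, and many recognise hexamers related to AGGTCA. In insects the steroid ecdysone, through its receptor, switches on a sequence of further receptor genes at each moult and at the onset of metamorphosis. Hr3 (a relative of vertebrate ROR), Hr4, Hr39 and ftz-f1 belong to that sequence, while Hr96, ERR and Hnf4 are known for the control of lipid and sugar metabolism, and svp is the relative of COUP-TF that specifies photoreceptors and neuroblast identity.

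The deposited thresholded list, made by the irreproducible discovery rate (IDR) from relaxed lists of 30000 regions for each replicate and for the pooled reads, gives 4797 peaks. Each has a summit and a signal, which is the authors' own score per peak and serves here to describe and rank peaks within 1 list, rank 1 being the strongest. The lists give no read counts, so that the depth of the libraries is unknown. A peak was assigned to a gene when its summit lay in the gene or within 1 kb of it. The strongest peak of each gene is the site that the results below turn on, and the stretch of it that lies outside annotated UTRs is shown as the plus strand of dm6, 5′ to 3′, read from the RefSeq genome. Capitals mark the GAGA element GAGAGAG or its complement, the only one of the motifs searched that occurs in these stretches (in Hnf4 and svp). For ERR and Hr39 the summit itself lies in a UTR, so that the stretch shown is the flank, and for Hr78 and Hr3 none is shown.
Hr96, chr3R:25025018-25025153: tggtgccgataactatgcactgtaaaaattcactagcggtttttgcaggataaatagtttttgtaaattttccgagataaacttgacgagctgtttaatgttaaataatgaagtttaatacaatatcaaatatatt
ERR, chr3L:8186791-8186856: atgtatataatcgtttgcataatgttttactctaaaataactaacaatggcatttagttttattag
Hr39, chr2L:21237146-21237249: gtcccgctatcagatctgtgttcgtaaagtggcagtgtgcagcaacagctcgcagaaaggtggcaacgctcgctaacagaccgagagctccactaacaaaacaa
Hr38, chr2L:20695096-20695351: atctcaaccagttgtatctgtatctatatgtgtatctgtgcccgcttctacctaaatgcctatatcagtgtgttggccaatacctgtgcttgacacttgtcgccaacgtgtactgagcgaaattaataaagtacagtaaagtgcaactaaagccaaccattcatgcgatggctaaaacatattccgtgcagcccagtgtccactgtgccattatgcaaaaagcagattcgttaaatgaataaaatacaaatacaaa
Hr4, chrX:1947601-1947856: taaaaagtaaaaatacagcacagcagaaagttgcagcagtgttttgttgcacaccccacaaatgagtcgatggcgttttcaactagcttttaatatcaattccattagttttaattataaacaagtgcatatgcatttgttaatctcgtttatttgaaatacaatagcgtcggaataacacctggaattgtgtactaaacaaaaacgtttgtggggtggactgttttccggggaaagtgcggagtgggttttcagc
Hnf4, chr2L:8692456-8692711: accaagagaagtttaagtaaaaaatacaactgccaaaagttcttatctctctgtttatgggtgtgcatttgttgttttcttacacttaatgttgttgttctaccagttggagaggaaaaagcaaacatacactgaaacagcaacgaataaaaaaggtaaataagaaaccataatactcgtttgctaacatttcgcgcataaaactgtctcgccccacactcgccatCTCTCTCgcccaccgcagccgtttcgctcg
svp, chr3R:12280856-12281109: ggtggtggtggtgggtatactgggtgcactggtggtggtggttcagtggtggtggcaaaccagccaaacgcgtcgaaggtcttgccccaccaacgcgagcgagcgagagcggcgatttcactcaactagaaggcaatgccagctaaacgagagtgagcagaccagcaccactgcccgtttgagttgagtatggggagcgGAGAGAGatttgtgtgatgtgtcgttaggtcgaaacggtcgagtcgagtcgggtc
ftz-f1, chr3L:18801310-18801541: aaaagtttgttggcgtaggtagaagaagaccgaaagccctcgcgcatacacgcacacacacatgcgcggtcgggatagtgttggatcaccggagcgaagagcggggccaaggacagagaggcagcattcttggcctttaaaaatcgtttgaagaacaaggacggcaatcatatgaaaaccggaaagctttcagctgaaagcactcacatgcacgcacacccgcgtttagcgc

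All 10 genes carried at least 1 thresholded peak, and together they carried 25. By the same rule 32.6% of all protein-coding genes carried a peak. The genes had been grouped with earlier results of these data known, and nuclear receptor genes without a peak, such as kni, knrl and usp, are not among them, so that the count of 10 is a description and was not tested. Over all 21 nuclear receptor genes of the fly, 15 carried a peak and 6 did not. The peaks were unevenly distributed, with 6 at Hr4, 5 at Hnf4 and 4 at Hr39, or 15 of the 25 at these genes. Hr96, Hr3 and ftz-f1 had 2 each, and ERR, Hr78, Hr38 and svp had 1 each.

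Length differed widely among the genes, and longer genes carried peaks more often over the genome. The median gene length was 26.8 kb for the 10 genes and 2.17 kb for all protein-coding genes. Hr96, ERR and Hr78 were under 5 kb long, a class in which 26.5% of all genes carried a peak. The other 7 were 20 kb or longer, a class in which 55.3% did. None fell between 5 and 20 kb, where the share was 49.4%. Among the 1013 genes of 20 kb and over, 560 carried a peak and 208, or 20.5%, had 3 or more. Of the 7 receptor genes of that length, 3 had 3 or more. The median was 1 peak over the class and 2 at the receptor genes. All 7 carried a peak, and receptor genes without a peak were left out, so that the whole class is not a like comparison. The part of gene length in the counts was not tested for the 10 genes.

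**Figure D1:**
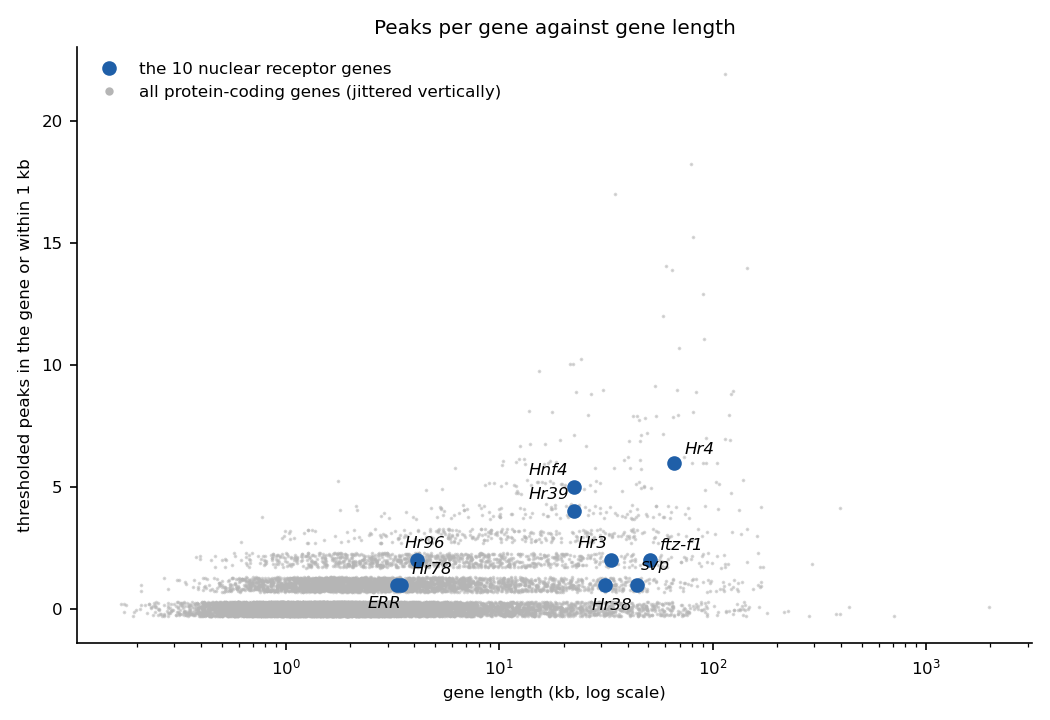
Number of thresholded peaks with a summit in the gene or within 1 kb (vertical axis) against gene length in kb (horizontal axis, log scale) for all protein-coding genes (grey points, jittered vertically) and the 10 nuclear receptor genes (blue, labelled). Hr96, ERR and Hr78 lie under 5 kb with 1 or 2 peaks, and Hr4, Hnf4 and Hr39 stand highest with 6, 5 and 4, within the spread of long genes.

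The median signal of the 25 peaks was 107 (64.1 to 297), against a median of 93.8 over the whole list, in which they ran from 63.3 to 1278. Of the 25, 15 belonged to the stronger 2398 peaks of the list and 6 had ranks beyond 4000. The deposited −log10 q-value stood at its ceiling of 3.86 for 17 of them, as it did for 74.9% of all peaks, so that it separates few of them.

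**Figure D2:**
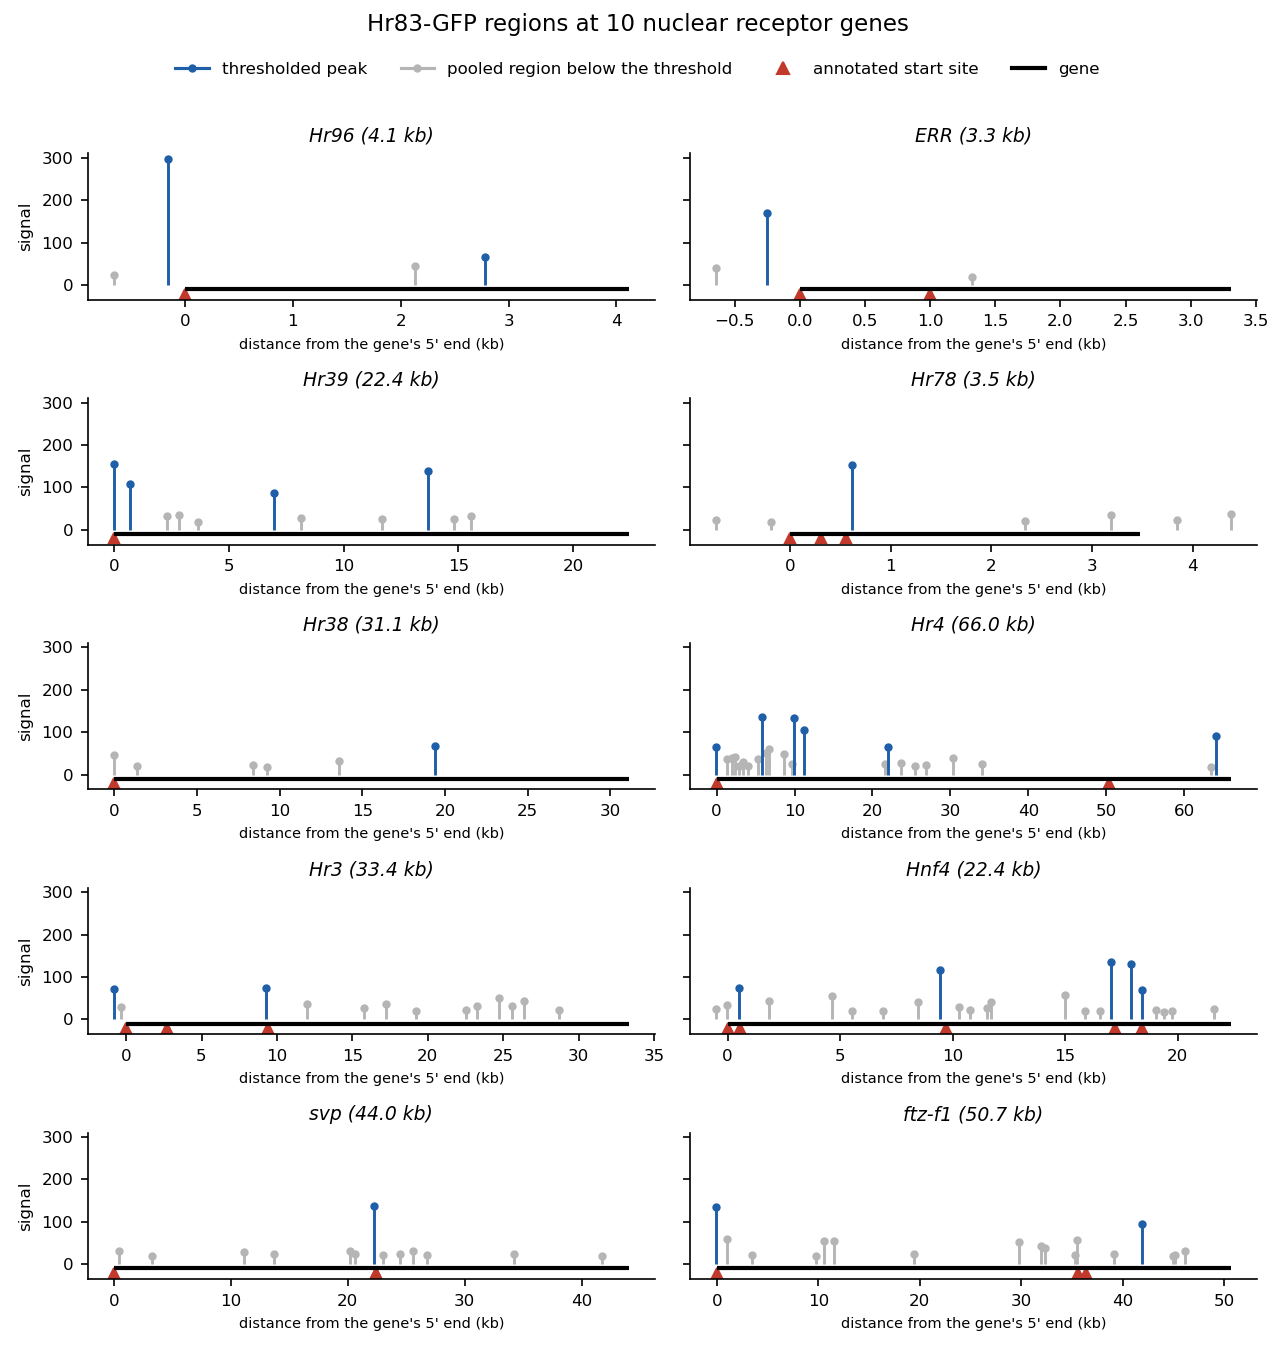
Signal (vertical axis) of each pooled region against the distance of its summit from the gene's 5′ end in kb (horizontal axis), 1 panel per gene, with thresholded peaks in blue, pooled regions below the threshold in grey, annotated start sites as red triangles and the gene as a black bar. Hr96, ERR and ftz-f1 have their strongest peak just upstream of the gene, svp has 1 peak at an internal start site, and Hr4 and Hnf4 have peaks spread along the gene.

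Among the receptors of metabolism, Hr96 carried the strongest peak of the whole set. Hr96 (FBgn0015240, 3R, 25025235 to 25029351, plus strand) is known for handling xenobiotics, dietary fat and cholesterol. Its first peak (3R, 25025014 to 25025153) had a signal of 297 and rank 113, with a summit 152 bp upstream of the only annotated start site. The same summit lay 66 bp from the start of EMC6, a gene on the other strand that encodes a subunit of the membrane protein insertase of the endoplasmic reticulum, so that the peak is shared by a divergent pair. Its signal was 123 in replicate 3 and 164 in replicate 4, at ranks 141 and 137, so that both replicates place it among their strongest regions. A second peak in intron 3 (3R, 25027893 to 25028148) was weak, with a signal of 66.5, rank 4441, and ranks of 4073 and 4778 in the replicates.

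ERR (FBgn0035849, 3L, 8183361 to 8186671, minus strand) encodes the estrogen-related receptor, which in flies switches larval metabolism towards glycolysis. Its only peak (3L, 8186791 to 8187046) had a signal of 169 and rank 571. The summit lay 248 bp upstream of the start of transcript ERR-RA and 62 bp from the start of the autophagy gene Atg18a on the other strand. Replicate 3 gave it a signal of 77.3 at rank 547 and replicate 4 a signal of 84.6 at rank 997. At both Hr96 and ERR the neighbour's start was thus the nearer one, and which gene of each pair the peak belongs to cannot be told apart from its position. At the other start site of ERR, that of ERR-RB, the strongest pooled region within 500 bp had a signal of 18.2 and rank 29286.

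Hnf4 (FBgn0004914, 2L, 8687226 to 8709611, minus strand), which drives fatty acid oxidation in starved larvae, carried 5 peaks, each within 500 bp of an own start site. Of its 5 annotated start sites, 4 had a thresholded summit within 500 bp. The strongest peak (2L, 8692456 to 8692711, signal 135, rank 1043) lay 184 bp upstream of the start of Hnf4-RF. The next (2L, 8691564 to 8691819, signal 130, rank 1156) lay 483 bp upstream of the start of Hnf4-RB, and a weaker one of signal 69.1 and rank 4195 lay 21 bp inside that start, in a coding exon. A peak of signal 116 and rank 1495 (2L, 8700033 to 8700288) lay 256 bp upstream of the start of Hnf4-RD, and one of signal 73.9 and rank 3718 lay 62 bp upstream of the start of Hnf4-RA. At the start of Hnf4-RE, the most upstream, the strongest pooled region was below the threshold, with a signal of 34.2. The peaks upstream of Hnf4-RF, Hnf4-RB and Hnf4-RD had ranks between 989 and 2786 in both replicates. The coding exon peak ranked 2187 in replicate 3 and 14212 in replicate 4.

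Of the receptors of the ecdysone sequence, Hr39 carried peaks at its start and deep in its introns. Hr39 (FBgn0261239, 2L, 21237250 to 21259675, plus strand) is a relative of ftz-f1 that responds to ecdysone and is needed for the secretory cells of the female reproductive tract. A peak of signal 156 and rank 710 (2L, 21237146 to 21237401) had its summit 24 bp downstream of the start site that all 4 transcripts share, and a peak of signal 107 lay 668 bp further on in intron 1, 359 bp from the annotated start of the microRNA gene mir-9374. In intron 2 a peak of signal 87.3 lay 6972 bp and one of signal 138 (2L, 21250798 to 21251053, rank 992) 13676 bp from the start. All 4 peaks were among the 4797 strongest regions of each replicate. Their order differed between replicates: the intron 2 peak led in replicate 3 at rank 851, ahead of the start site at 1302, and the start site led in replicate 4 at rank 618, ahead of the intron peak at 1004.

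Hr4 (FBgn0264562, X, 1941940 to 2007956, plus strand), which in the prothoracic gland times ecdysone production, had the most peaks, 6, over the longest of the 10 genes, 66.0 kb. The peak at its main start site, shared by 7 transcripts, was the weakest of all 25, with a signal of 64.1, rank 4703, and ranks of 9921 and 6573 in replicates 3 and 4. Stronger peaks lay in the introns that follow, at 5.79 kb (X, 1947601 to 1947856, signal 135, rank 1052), 9.99 kb (X, 1951797 to 1952052, signal 134, rank 1085) and 11.2 kb (signal 104, rank 1913). These 3 peaks held ranks between 918 and 2491 in the replicates. A peak at 22.0 kb had a signal of 66.2 and ranked 2466 in replicate 3 against 15803 in replicate 4. The last, of signal 90.6, lay in the 3' UTR. At the internal start site of Hr4-RE and Hr4-RF 0 regions of any of the 4 lists had a summit within 500 bp.

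Hr3 (FBgn0000448, 2R, 10203995 to 10237348, minus strand), which in the prepupa helps to activate ftz-f1, carried 2 weak peaks. That of signal 74.1 and rank 3695 (2R, 10227939 to 10228194) lay 110 bp upstream of the internal start site of Hr3-RA, Hr3-RF and Hr3-RH, with ranks of 7017 in replicate 3 and 3476 in replicate 4. That of signal 71.0 and rank 4003 (2R, 10238039 to 10238294) lay 819 bp upstream of the gene and 22 bp from the start of the noncoding RNA gene lncRNA:CR45265. It differed most between the replicates: its rank was 1423 in replicate 4, with a signal of 73.6, and 25424 in replicate 3, with a signal of 10.6. At the start of Hr3-RC and Hr3-RI 0 regions were listed within 500 bp in any of the 4 lists.

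At ftz-f1 (FBgn0001078, 3L, 18750607 to 18801309, minus strand), which gives the prepupa its competence to respond to the next ecdysone pulse, the signal stood at the distal start site. The peak there (3L, 18801286 to 18801541, signal 135, rank 1042) had its summit 105 bp upstream of the start of ftz-f1-RB and 102 bp from that of lncRNA:CR45939. It ranked 2859 in replicate 3 and 393 in replicate 4, with signals of 37.3 and 116. At the start shared by ftz-f1-RC and ftz-f1-RD the strongest pooled region was below the threshold, with a signal of 57.1, rank 5650, and ranks of 11632 and 4030 in replicates 3 and 4. At that of ftz-f1-RA no region was listed within 500 bp in the 4 lists. A second thresholded peak (3L, 18759323 to 18759578, signal 94.3, rank 2372) lay in an intron 5505 bp downstream of the start of ftz-f1-RA.

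Hr38, which can pair with Usp, the partner of the ecdysone receptor, and Hr78, which binds elements that this pair also recognises, differed in where their single peak lay. Hr78 (FBgn0015239, 3L, 21494019 to 21497494, minus strand) had a narrow peak of 93 bp (3L, 21496847 to 21496939) with a signal of 153 and rank 762. Its summit lay 62 bp downstream of the internal start of Hr78-RF and 615 bp from the most upstream start, where the strongest pooled region had a signal of 17.9. It ranked 1189 in replicate 3 and 667 in replicate 4. Hr38 (FBgn0014859, 2L, 20683462 to 20714588, minus strand), a relative of vertebrate NR4A receptors, was the only one of the 10 genes without a thresholded summit within 500 bp of an own start site. Its peak (2L, 20695096 to 20695351, signal 67.9, rank 4303) lay in an intron 19.4 kb from the start, and ranked 2185 in replicate 3 and 10364 in replicate 4. At the Hr38 start itself the pooled region had a signal of 46.2 and rank 7638, below the threshold.

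The peak of svp (FBgn0003651, 3R, 12258737 to 12302785, plus strand) lay at internal start sites 22 kb inside the gene. It had a signal of 137 and rank 1004 (3R, 12280856 to 12281111), and its summit was 126 bp upstream of the start of svp-RA, next to that of svp-RB, svp-RE and svp-RF. It ranked 1263 in replicate 3 and 881 in replicate 4. At the upstream start, used by svp-RC, the strongest pooled region had a signal of 30.3 and rank 13821.

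Counted over start sites, 14 of the 24 annotated start sites of the 10 genes had a thresholded summit within 500 bp, against 22.7% of all start sites of protein-coding genes. Counted over genes, 9 of the 10 had such a start site, Hr38 being the exception, against 24.2% of all protein-coding genes. Receptor genes without a peak are not among the 10, so that both counts stand high by the choice of genes. Neighbouring start sites share peaks, as at svp and Hr78, and the shares were not tested. Hr96, Hr39 and Hr38 have 1 start site each, and each of the other 7 genes had both a start site with a thresholded peak and one without.

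**Figure D3:**
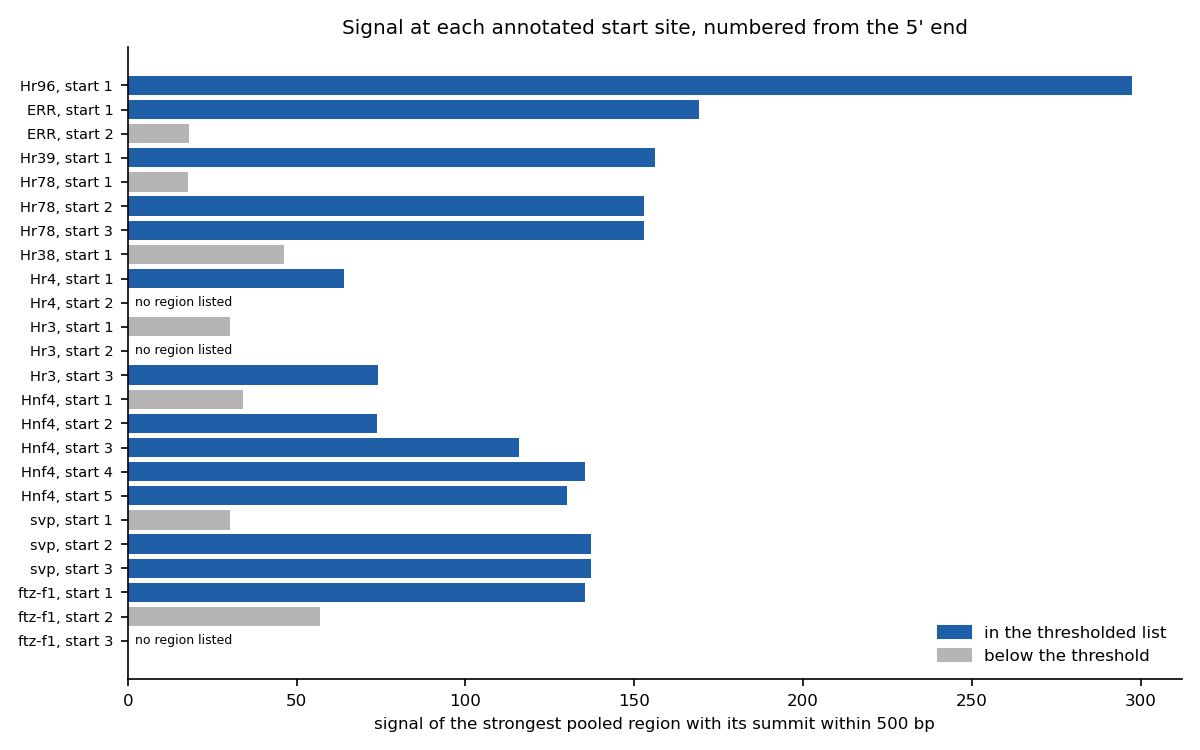
Signal of the strongest pooled region with its summit within 500 bp (horizontal axis) at each of the 24 annotated start sites, numbered from the 5′ end of the gene, in blue where a thresholded peak is present and in grey where the region is below the threshold. The upstream start of Hr78, Hr3, Hnf4 and svp has a signal of 34.2 or less, while an internal start of the same gene carries a thresholded peak, and at ERR, Hr4 and ftz-f1 the most upstream start carries it.

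By position, 15 of the 25 summits, 60.0%, lay within 500 bp of any annotated start site, against 64.3% of all thresholded peaks. A start site of the receptor gene itself lay within 500 bp of 13, and the other 2 lay by lncRNA:CR45265 and mir-9374. For the strongest peaks of Hr96, ERR and ftz-f1, among the 13, the start of another gene was nearer. By the transcripts of each receptor gene, 15 summits were intronic, 5 were upstream, 3 were in 5' UTRs, 1 was in a coding exon and 1 in a 3' UTR. Neither these places nor those of the more distant summits were compared with all peaks or with genes of like length. Of the 10 genes, 7 are 20 kb or longer. Of the summits farther than 500 bp from any start, 9 of 10 were intronic, and 6 of the 10 were over 5 kb from any start. For 8 of these 10 the nearest start belonged to another gene: to mir-9374 and l(2)k14505 for the peaks in intron 2 of Hr39 (5921 and 10242 bp), to CG2617 for Hr38 (12856 bp) and to lncRNA:CR45938 for the intronic peak of ftz-f1 (5366 bp). At Hr4 it was CR46447 for the peaks at 9.99, 11.2 and 22.0 kb (2555, 1369 and 9452 bp), and PIG-K for the peak in the 3' UTR (3343 bp).

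The replicates placed these peaks alike but ranked them differently. All 25 overlapped a region in both complete lists of 30000, with a median offset between summits of 11 bp in replicate 3 and 8 bp in replicate 4. Among the 4797 strongest regions of both replicates were 18 of the 25, or 72.0%, against 60.9% of all thresholded peaks. Another 5 were among them in 1 replicate only: the peak of Hr38, the peak of Hr4 at 22.0 kb and the coding exon peak of Hnf4 in replicate 3, and both peaks of Hr3 in replicate 4. The peaks at the start sites of Hr4 and of Hnf4-RA were among them in neither. Since the thresholded list was itself derived from these replicates, the overlap does not stand as separate evidence.

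**Figure D4:**
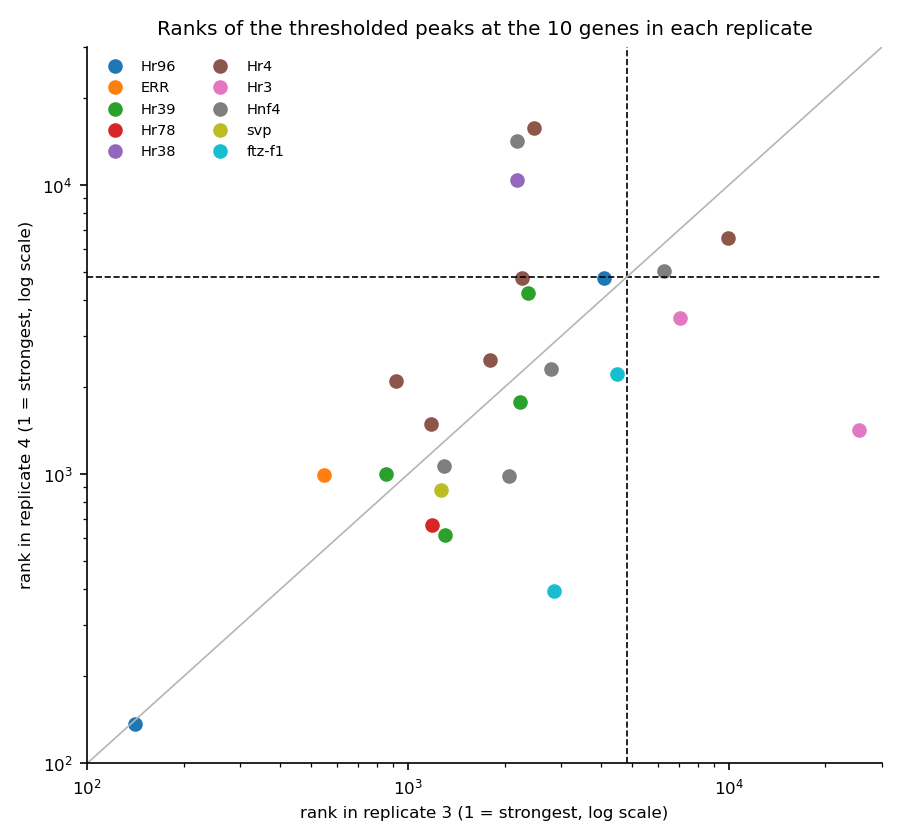
Rank in replicate 4 (vertical axis, log scale) against rank in replicate 3 (horizontal axis, log scale) of the relaxed region overlapping each of the 25 thresholded peaks, coloured by gene; 1 is the strongest, dashed lines stand at 4797 and the grey line marks equal ranks. The strong Hr96 peak lies at 141 and 137, ftz-f1 ranks 2859 and 393 at its distal start, and an Hr3 peak lies at 25424 and 1423.

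In sequence, both peaks in intron 2 of Hr39 hold a receptor hexamer near the summit, and they were chosen for display after the matches were seen. The hexamers AGGTCA, shared by many nuclear receptors, and AAGTCA, known for the class to which Hr83 belongs, were searched with 5 other motifs on both strands in windows of 200 bp on the summits. In the weaker peak of intron 2, AAGTCA is centred 4 bp and AGGTCA 20 bp from the summit, and in the stronger one AAGTCA is centred 13 bp from it. Both peaks are shown as the plus strand of dm6 with the matches in capitals, where TGACTT and TGACCT are the complements of the hexamers and CTCTCTC that of the GAGA element.
Hr39, chr2L:21244094-21244349: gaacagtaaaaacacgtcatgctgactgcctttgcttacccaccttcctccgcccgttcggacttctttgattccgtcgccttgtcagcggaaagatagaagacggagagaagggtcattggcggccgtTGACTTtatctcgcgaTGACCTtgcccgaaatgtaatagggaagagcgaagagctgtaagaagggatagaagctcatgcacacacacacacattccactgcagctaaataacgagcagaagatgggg
Hr39, chr2L:21250798-21251053: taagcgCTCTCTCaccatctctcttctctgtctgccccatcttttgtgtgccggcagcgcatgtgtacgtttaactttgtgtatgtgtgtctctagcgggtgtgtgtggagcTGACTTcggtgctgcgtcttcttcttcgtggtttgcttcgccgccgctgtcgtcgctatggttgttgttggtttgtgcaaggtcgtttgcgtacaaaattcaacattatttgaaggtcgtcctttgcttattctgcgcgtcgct

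Over the 25 windows AAGTCA was found in 3, or 12.0%, against 8.65% of all thresholded peaks and 9.91% of the 25107 pooled regions that overlap none of them. Beside the Hr39 peaks it was found at the internal start of Hr3, 58 bp from the summit. AGGTCA was found in 2, or 8%, against 3.00% of all peaks and 4.78% of the other regions, at Hr39 and in the intronic peak of ftz-f1. Both hexamers were thus less frequent over all thresholded peaks than over the other regions. Whether Hr83 binds at the matches was not tested. The GAGA element was found in 4, or 16.0%, against 11.97% and 5.08%: in the peaks at the starts of Hnf4-RA and Hnf4-RB, at the internal start of Hr3 and at svp. The GAGA matches marked in the sequences of the Hnf4-RF peak and the stronger intron 2 peak of Hr39 are not wholly inside these windows and were not counted. Overlapping matches of the GAGA element count as 1 window, and at Hnf4-RA 7 of them lie around the summit. The longer receptor element TCAAGGTCA, the DRE element TATCGATA, the core promoter element GTCACACT and the scrambled hexamer ACATGA were found in 0 of the 25, against 0.188%, 6.48%, 3.84% and 5.65% of all peaks. With 25 windows these counts are descriptions, and 18 windows held none of the motifs other than the scrambled one. The mean GC content was 47.5% in the 25 windows and 44.7% over all peaks.

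Among the other 11 nuclear receptor genes, 5 carried a peak by the same rule. The 10 genes, all with a peak, had been taken out, so that all 6 receptor genes without a peak fall here. The count of 5 is thus set low by that split and cannot be set against a background. Their median length was 8.90 kb, in the class of 5 to 20 kb with a share of 49.4%. The genes ran from 1.27 kb (Hr83) to 113.7 kb (Eip75B), so that this class does not cover all of them. Eip75B had 22 peaks, the strongest of signal 350, EcR 15 with a strongest of 174, Hr83 itself 1 of signal 186, Hr51 1 of 148 and Eip78C 2 with a strongest of 126. The remaining 6, usp, tll, dsf, kni, knrl and eg, had 0 thresholded peaks, and the strongest pooled region at them, at eg, had a signal of 62.0. Of the 12 genes for coregulators and partners of nuclear receptors, 7 carried a peak. Their median length was 7.72 kb, in the class of 5 to 20 kb with its share of 49.4%, and the count was not tested. The genes ran from 1.92 kb (ftz) to 83.4 kb (tai) in length, so that this class does not cover all of them. They were led by the corepressor genes Sin3A (8 peaks, strongest 287) and Smr (4 peaks, strongest 225), followed by the coactivator gene tai (9 peaks, strongest 154) and the acetyltransferase gene nej (4 peaks, strongest 132). At ftz, whose product is the embryonic partner of ftz-f1, 0 regions of the pooled list were found.

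In pathways known for ERR and Hnf4, part of the genes carried an Hr83-GFP peak, while binding by ERR or Hnf4 was not measured. Of the 12 glycolytic genes, a pathway that ERR is known to activate in fly larvae, 7 carried a peak, led by Pgk (6 peaks, strongest 184), Gapdh2 (157), Pglym78 (140) and Hex-A (131). Of the 11 genes of fatty acid oxidation, a pathway of Hnf4, 5 carried a peak, led by whd (3 peaks, strongest 113), yip2 (99.6), Mcad (77.0) and scu (66.3). The median length was 3.86 kb for the glycolytic and 2.53 kb for the fatty acid oxidation genes. Under 5 kb, 26.5% of all genes carried a peak. Pgk (6.19 kb), other glycolytic genes and whd (9.1 kb) are longer, in the class of 5 to 20 kb with a share of 49.4%. The counts were not tested.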

How the data were processed

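Hr83-GFP ChIP-seq was analysed from the authors' deposited dm6 region lists for 2 biological replicates; dm3 lists were not used. Per notes deposited with the samples, calling of the relaxed lists used a control alignment, and IDR then gave the thresholded list. Which aligner and which caller were used is not given in the sources used. Signal, as deposited by the authors, is 1 value per region and cannot be compared between lists; the deposited −log10 q-value reaches a ceiling. No read counts are given, so depth and its precision are unknown.

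Genes, transcripts and start sites came from Ensembl release 115 (chromosomes 2L, 2R, 3L, 3R, 4 and X), without transposons and mature microRNA products. Ranks, distances, motif matches on both strands and overlaps of at least 1 bp were computed with Python 3.11.15, pandas 2.3.3 and numpy 2.4.6, and the procedures were tested on simulated data. With 1 group, all results are descriptions without a test. Members and lists were chosen with earlier results of these data known. All thresholded peaks at the members were named, with the gene of the nearest start site where it is another gene, and the 4 genes of strongest signal per list; Eip78C, the receptor genes without a peak and ftz are named outside this rule, after their values were seen. CSN2 and Pyk matched as alien and PyK through RefSeq synonyms. Alternatives changed the gene margin, use of summits, list strength, start-site distance, overlap, motif window and replicates.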

Additional observations from a re-analysis of the deposited data

How the results depend on the processing

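The number of receptor genes with a peak ranged from 8 to 10 over the settings tried: ERR was lost with summits in the gene only, Hr38 with summits within 1 kb of a start site, and Hr38 and Hr3 with the stronger peaks alone. Receptor genes without a peak were left out, so that this number could not rise above 10. Its range is therefore not a like comparison with the share of all protein-coding genes. That share moved from 32.6% to 13.7% (summit in the gene only), 50.6% (within 5 kb), 27.3% (within 1 kb of a start site) and 19.9% (stronger peaks). The 25 peaks became 15 both within 1 kb of a start site and with the stronger peaks. Lists of 1 replicate, leaving out the other, gave 9 to 10 genes (Hr38 was lost without replicate 3), 21 to 23 peaks and a share of 31.6% to 32.0%. The median of the strongest signal per gene was 136, against 134.9 over 9 genes with summits in the gene only. In that setting ERR had no value, Hr96 fell to its intronic peak of 66.5 and ftz-f1 to its intronic peak of 94.3. Leaving out a replicate gave medians of 55.9 to 86.9 on the scales of other lists. With a smaller number of strongest regions per replicate (50% as many), 11 of the peaks overlapped both in place of 18. AGGTCA was found in 1 window of 100 bp, and GAGAGAG in 2 windows of 100 bp and 8 of 300 bp. No share over all peaks is given for these widths, so that the shares for 200 bp windows are not a like comparison. With 2 replicates and no depth, differences in rank between replicates have no error estimate.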

Other observations

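Below the threshold, the pooled list held 96 further regions at the 10 genes, of which 42 overlapped a region in both replicates. Neither count was set beside a share over all pooled regions, and neither was tested. Over all protein-coding genes the median number of pooled regions, thresholded or not, was 1 under 5 kb and 7 at 20 kb and over. At the 7 receptor genes of 20 kb and over it was 13, and receptor genes without a peak were left out. The strongest of the 96 regions lay in an intron of Hr4 (signal 61.5, rank 5032) and in the 5' UTR of ftz-f1 (60.1, rank 5214). These were followed by the region at the start of ftz-f1-RC and ftz-f1-RD (57.1, rank 5650) and by one at Hnf4 (56.6, rank 5728). In 2 genes the strongest region of 1 replicate was such a region. For Hr3 in replicate 3 it was intronic (2R, 10212440 to 10212679), with a signal of 30.9 and rank 3979. For Hr38 in replicate 4 it stood 64 bp from the start site (2L, 20714527 to 20714776), with a signal of 23.6 and rank 9576.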
